A study of Saccharomyces cerevisiae with 8 samples.

Results

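The mRNA response of budding yeast to spermidine was measured by RNA sequencing of a Saccharomyces cerevisiae strain that cannot make polyamines, grown without added spermidine or with 10 µM of it. The comparison uses the 4 total RNA libraries of a study of 8 libraries, 2 at 0 µM and 2 at 10 µM, and covers every gene of the deposited count table: 5488 genes were tested of 5545 listed. The other 4 libraries are ribosome footprints from the same 2 growth conditions and enter the same model, where they help to estimate the spread and allow the RNA change to be set beside the footprint change. All groups share the genotype MATa ura3-52 leu2 with SPE1 and SPE2 each replaced by LEU2, and all were grown at 30 °C in SD medium, a minimal glucose medium, inoculated at an optical density of 0.025 and harvested at 0.6 to 0.7. Spermidine was in the medium throughout growth, so the comparison is between 2 states of growth, not a time course after addition. Whole cells were used, and the labels name a single strain and no untreated polyamine-making control.

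Polyamines are small positively charged molecules that bind RNA and ribosomes and that every eukaryotic cell needs for growth. In yeast, Spe1 (ornithine decarboxylase) makes putrescine, Spe2 (S-adenosylmethionine decarboxylase) supplies the aminopropyl group, and Spe3 joins them to spermidine. Spermidine is also the source of hypusine, the modified lysine that the translation factor eIF5A needs to help ribosomes through difficult peptide bonds. A cell without Spe1 and Spe2 depends on uptake through plasma membrane transporters, chief among them Hol1, and with no polyamine in the medium it can live only on what it carried in.

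RNA libraries held between 1786419 and 2884632 counts, with both 0 µM libraries deeper than both 10 µM libraries. Over genes, log2 levels of replicates had a Pearson r of 0.984 at 0 µM and 0.985 at 10 µM, as a description, and differed beyond counting noise, with a chi-square per degree of freedom of 10.3 and 5.61. Whether replicates were separate cultures is not in the labels, and p-values therefore measure only the spread among these libraries, which may be technical. SPE1 had 5 to 15 reads and SPE2 3 to 26 reads per RNA library. The a-cell genes MFA1, MFA2, STE2, STE6, AGA2 and BAR1 had 59 to 1460 reads per RNA library and ASG7, another, had 10 to 27, while the alpha-cell genes MF(ALPHA)1 and STE3 had 5 to 24 and SAG1 71 to 103. The first 6 were thus present, as the labelled mating type requires, but SAG1 reads were present as well. AGA2, at 59 to 101 reads, overlapped the range of SAG1, and ASG7 overlapped that of STE3. Levels are CPM, counts scaled to a common library total after composition scaling, and a pair of values before a pair of others gives replicates 1 and 2 at 0 µM and then at 10 µM. The scaling sets the typical gene to no change (median log2 change of all tested genes 0.0017), so a rise or fall of all mRNA together cannot be seen. In RNA from a whole culture, less RNA per cell and fewer cells that carry it cannot be told apart.

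With spermidine, 464 genes were called higher, 8.45% of those tested, and 739 lower, 13.5% (by edgeR's quasi-likelihood test, at a p adjusted by Benjamini-Hochberg below 0.05), so that 21.9% were called in all. Every count of called genes in a list below is to be set against these shares. Genes of sterol and arginine synthesis, NAD synthesis from tryptophan and several glycolytic isozymes were among those that rose. Genes for ribosomal proteins, histones, translation factors, respiratory complexes and the cell surface were among those that fell. Most changes were modest: the median called rise was 1.64-fold and the median called fall 1.57-fold, 99 genes rose and 106 fell by more than 2-fold, and 3 rose and 8 fell by more than 4-fold. The genes that fell were more abundant, with a median level of 144 CPM against 72.0 CPM for those that rose. Leaving out a single library left between 233 and 433 genes higher and between 436 and 677 lower. The counts moved by more than 1.5 times without RNA replicate 2 at 10 µM (233 higher, 436 lower), without RNA replicate 1 at 10 µM (302 and 469) and, for rises, without RNA replicate 1 at 0 µM (294).

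**Figure D1:**
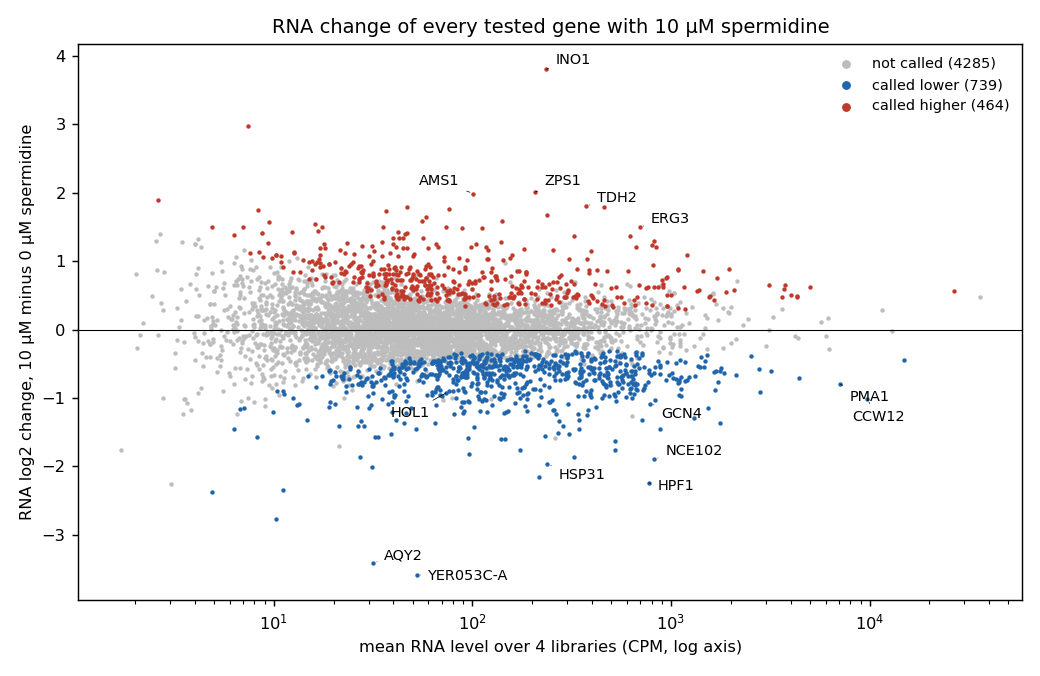
RNA log2 change with 10 µM spermidine (vertical axis) against the mean RNA level over the 4 libraries (CPM, log axis), with 1 point for each of 5488 genes and red and blue for genes called higher (464) and lower (739). INO1 stands alone at the top with 3.80, and YER053C-A and AQY2 lie lowest among the labelled genes at -3.59 and -3.41; abundant genes such as CCW12 and PMA1 are among those called lower.

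INO1 (YJL153C), inositol-3-phosphate synthase, the first step of inositol synthesis, showed the largest rise. Its level went from 29.7 and 33.1 to 459 and 422 CPM (13.97-fold; log2 change 3.80, SE 0.18, edgeR adjusted p = 9.6e-06). The replicates were close to each other in both conditions and the groups were far apart. Among genes at 10 CPM or more it was followed by ZPS1, a zinc-regulated cell surface protein, which went from 64.2 and 100.4 to 398 and 268 CPM (log2 change 2.01, SE 0.31, edgeR adjusted p = 0.0019), with replicates further apart than those of INO1. AMS1, the vacuolar alpha-mannosidase, went from 45.4 and 36.2 to 169 and 153 CPM (log2 change 1.99, SE 0.17, edgeR adjusted p = 0.00015). TDH2, a glyceraldehyde-3-phosphate dehydrogenase, went from 164 and 168 to 638 and 524 CPM (log2 change 1.81, SE 0.14, edgeR adjusted p = 0.00012). In each of these genes both 10 µM libraries lay above both 0 µM libraries.

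The other rises among the 15 largest covered many functions. A single number in brackets after a gene is its RNA log2 change. SNZ1 (1.8) takes part in vitamin B6 synthesis, UGA1 (1.77) is the 4-aminobutyrate transaminase, SER3 (1.68) the first enzyme of serine synthesis from glycolysis, and SUL1 (1.58) a sulfate permease. CWP1 (1.59) is a cell wall mannoprotein, ERG3 (1.5) the sterol C-5 desaturase, YPT53 (1.73) an endosomal Rab protein and MST27 (1.55) a membrane protein of COPI vesicles. YHI9 (1.64) and GIP1 (1.79), a meiotic subunit of protein phosphatase 1, completed the group with ADH4 (1.5), an alcohol dehydrogenase. The ADH4 call was lost without RNA replicate 1 at 0 µM or RNA replicate 1 at 10 µM (largest edgeR adjusted p 0.14). SER3 lies next to and overlaps SRG1, a non-coding transcript known to repress it, and whether the counting kept them apart is not given in the sources used here. GIP1 reads rose in RNA from 168 and 245 to 828 and 598 CPM, while its footprints were at 38.7 and 50.3 CPM (means at 0 and 10 µM) and were not called (log2 change 0.39, edgeR adjusted p = 0.2).

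The largest fall was in YER053C-A, a small gene of no known function, which went from 113 and 80.96 to 10.97 and 5.13 CPM (log2 change -3.59, SE 0.32, edgeR adjusted p = 0.00017). AQY2, an aquaporin, went from 62.6 and 53.6 to 3.66 and 7.18 CPM (log2 change -3.41, SE 0.35, edgeR adjusted p = 0.00036), and its reads may be shared with YLL053C, which it overlaps. COX26, a small protein of cytochrome c oxidase, went from 20.3 and 15.7 to 3.66 and 1.54 CPM (log2 change -2.78, SE 0.42, edgeR adjusted p = 0.0017). Each of the 3 ended at a low level, so the sizes of their falls are imprecise: without RNA replicate 1 at 10 µM the log2 changes were -4.23 for YER053C-A and -3.52 for COX26, more than 1.5-fold further from 0. HPF1, a cell wall mannoprotein, went from 1575 and 978 to 277 and 261 CPM (log2 change -2.24, SE 0.23, edgeR adjusted p = 0.00033). HSP31, a glyoxalase of the DJ-1 family, went from 398 and 362 to 94.02 and 100.04 CPM (log2 change -1.97, SE 0.11, edgeR adjusted p = 2.7e-05). HPF1 was spread between its 0 µM replicates while HSP31 was not, and in both the groups were separate.

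Of the other 10 largest falls, DDR2 (-2.16) is a stress-induced protein, NCE102 (-1.89) a protein of plasma membrane eisosomes, PUT4 (-1.86) the proline permease and ISU2 (-1.82) a scaffold for iron-sulfur clusters. COA2 (-1.87) assists cytochrome oxidase assembly, NDE1 (-1.76) is the external mitochondrial NADH dehydrogenase, and HHF1 (-1.76) and HTB2 (-1.63) are histone genes. YPL277C (-2.01) has no known function. HXT7 (-2.34), a high-affinity hexose transporter, fell from few reads and lost its call without RNA replicate 2 at 10 µM (largest edgeR adjusted p 0.054). HXT7 has a near-identical copy, HXT6, for which no count was used here.

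Among the most abundant mRNAs that changed by at least 1.5-fold, those for surface and translation proteins fell. CCW12, a major cell wall protein, went from 15293 and 10703 to 7343 and 5466 CPM (log2 change -1.02, SE 0.19, edgeR adjusted p = 0.004). PMA1, the plasma membrane proton pump, went from 9744 and 8386 to 5284 and 5115 CPM (log2 change -0.80, SE 0.10, edgeR adjusted p = 0.00079), and YEF3, the fungal elongation factor 3, went from 5783 and 5201 to 3376 and 3368 CPM (log2 change -0.70, SE 0.09, edgeR adjusted p = 0.00073). FKS1 (-0.61), the catalytic subunit of glucan synthase, fell as well. The glycolytic genes PGK1 (0.62) and ENO2 (0.65) rose. MLH3 (0.65) and RRP12 (0.60) were also among these rises, with RNA levels at 0 µM that were 28.6 and 7.20 times their footprint levels, where the median gene had 0.986. A ratio above 10 was found for 162 of the 5488 genes (2.95%), for 15 of the 464 that rose (3.23%) and for 9 of the 739 that fell (1.22%). Which reads raise such entries was not tested.

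HOL1 (YNR055C, at 728426 to 730186 on chromosome XIV of R64), the polyamine transporter that the study is about, went from 97.4 and 101 to 51.2 and 54.9 CPM, a 1.87-fold fall (log2 change -0.90, SE 0.15, edgeR adjusted p = 0.0024). Both libraries with spermidine lay below both without, and the call held in each of the 18 alternative settings, with values between -0.96 and -0.86 when a library was left out. Of the 7 tested genes of polyamine uptake and its kinases, 3 were called lower and 1 higher. Besides HOL1 these were SAM3 (-0.50), a permease for S-adenosylmethionine and polyamines, PTK2 (-0.43), a kinase that promotes uptake, and AGP2 (0.43), a plasma membrane regulator of polyamine uptake, which was the gene called higher. The PTK2 and AGP2 calls were close to the threshold (edgeR adjusted p = 0.045 and 0.044). SAM3 lost its call without RNA replicate 1 at 0 µM or RNA replicate 1 at 10 µM (largest edgeR adjusted p 0.069). PTK2 lost it in 11 of the 18 settings and AGP2 in 10, among them DESeq2, limma voom and the omissions of RNA replicate 1 at either concentration and of RNA replicate 2 at 10 µM. PTK2 also lost it without either footprint library at 0 µM, and AGP2 without RNA replicate 2 at 0 µM or either footprint library at 10 µM. DUR3, PTK1 and SKY1 were not called.

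Of the 5 genes for exporters, 3 were called lower. TPO2 went from 86.8 and 65.6 to 26.1 and 29.2 CPM (log2 change -1.46, SE 0.18, edgeR adjusted p = 0.00062) and TPO4 from 110.3 and 122 to 67.9 and 76.4 CPM (log2 change -0.69, SE 0.12, edgeR adjusted p = 0.0033), both without overlap between conditions. TPO1 differed by -0.57 (edgeR adjusted p = 0.023), and its call was lost without RNA replicate 2 at 0 µM or RNA replicate 1 at 10 µM and with DESeq2. TPO3 (0.02) and TPO5 (0.01) were not called. In the pathway of synthesis and breakdown, SPE3, spermidine synthase, went from 260.1 and 251 to 177 and 164 CPM (log2 change -0.58, SE 0.10, edgeR adjusted p = 0.0037). OAZ1, the antizyme that restrains polyamine synthesis, stood at 19.2 and 32.1 against 39.7 and 45.1 CPM and missed the threshold (log2 difference 0.71, edgeR adjusted p = 0.051). No gene of this pathway list was called higher, but 1 was with DESeq2 size factors, library totals or the RNA libraries fitted alone and without RNA replicate 2 at 0 µM. The few reads on SPE2, called lower (-1.46, edgeR adjusted p = 0.037), lost that call in 8 of the 18 settings, 7 of them omissions of a library, all but that of RNA replicate 2 at 10 µM. SPE4 (0.44), FMS1 (0.69), PAA1 (-0.12), CAR1 (-0.05) and MEU1 (-0.30) were not called.

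The RNA for eIF5A itself was lower with spermidine. HYP2, the eIF5A gene used in air, went from 2326 and 1926 to 1552 and 1322 CPM (log2 change -0.57, SE 0.13, edgeR adjusted p = 0.011), and LIA1, which hydroxylates deoxyhypusine, went from 141 and 134 to 76.8 and 99.01 CPM (log2 change -0.65, SE 0.16, edgeR adjusted p = 0.019). The HYP2 call was lost without RNA replicate 1 at 0 µM or RNA replicate 2 at 10 µM (largest edgeR adjusted p 0.095), and the LIA1 call without RNA replicate 1 at 0 µM or RNA replicate 1 at 10 µM (largest edgeR adjusted p 0.12). DYS1, deoxyhypusine synthase, differed by -0.17 (edgeR adjusted p = 0.29). ANB1, the eIF5A gene of oxygen-poor growth, was at 0.513 to 4.10 CPM in the 4 libraries.

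Ribosomal protein genes moved together and downward. Of 138 tested genes, 116 were called lower, 3 higher and 19 not called, with a median log2 change of -0.63. The large subunit had 66 of 81 genes lower and 2 higher, and the small subunit 50 of 57 lower and 1 higher. The small subunit count was 33 without RNA replicate 2 at 10 µM. The share of scaled counts on these genes was 9.77% and 8.70% in the 0 µM libraries and 6.27% and 5.72% in the 10 µM libraries. RPS27A went from 416 and 363 to 164 and 145 CPM (log2 change -1.33, SE 0.12, edgeR adjusted p = 0.00015), RPL36A from 581 and 487 to 236 and 214 CPM (log2 change -1.25, SE 0.13, edgeR adjusted p = 0.00036) and RPS14A from 1232 and 994 to 586 and 501 CPM (log2 change -1.03, SE 0.12, edgeR adjusted p = 0.00055). Their groups were well separated. RPL14A (-0.92), RPL23A (-1.09), RPS9B (-0.88) and RPS21A (-1.06) fell similarly. Ribosomal protein genes are short, and the shortest genes tended downward also without them: the 169 genes of at most 300 bp had a median of -0.24, or -0.19 without ribosomal protein genes. With the trend on length removed, 60 large and 48 small subunit genes were still called lower.

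Most ribosomal proteins of yeast are encoded by a pair of near-identical genes, called A and B. In 42 of 59 pairs both copies were called lower, in 12 only 1 copy was, in 2 neither was, and in 3 the copies were called in opposite directions. Of the 20 genes with no copy among those tested, 17 were called lower. The 3 divergent pairs were RPL9, RPL22 and RPS22, in each of which the A copy fell and the B copy rose. RPL22B went from 36.8 and 44.1 to 94.5 and 91.8 CPM (log2 change 1.2, SE 0.13, edgeR adjusted p = 0.00043) while RPL22A changed by -0.63 (edgeR adjusted p = 0.0066), a call lost without RNA replicate 2 at 10 µM (largest edgeR adjusted p 0.059). RPL9B went from 173 and 142 to 352 and 349 CPM (log2 change 1.16, SE 0.11, edgeR adjusted p = 0.00031) while RPL9A changed by -0.91 (edgeR adjusted p = 0.00055). RPS22B went from 59.5 and 68.3 to 128 and 112 CPM (log2 change 0.91, SE 0.17, edgeR adjusted p = 0.0047) while RPS22A changed by -0.76 (edgeR adjusted p = 0.0021). The rising copy was the less abundant of each pair at 0 µM, with means of 40.4 against 721 CPM for RPL22, 157 against 710.0 CPM for RPL9 and 63.9 against 1473 CPM for RPS22. How reads that match both copies were divided is not given in the sources used here, so values of single copies are uncertain.

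**Figure D2:**
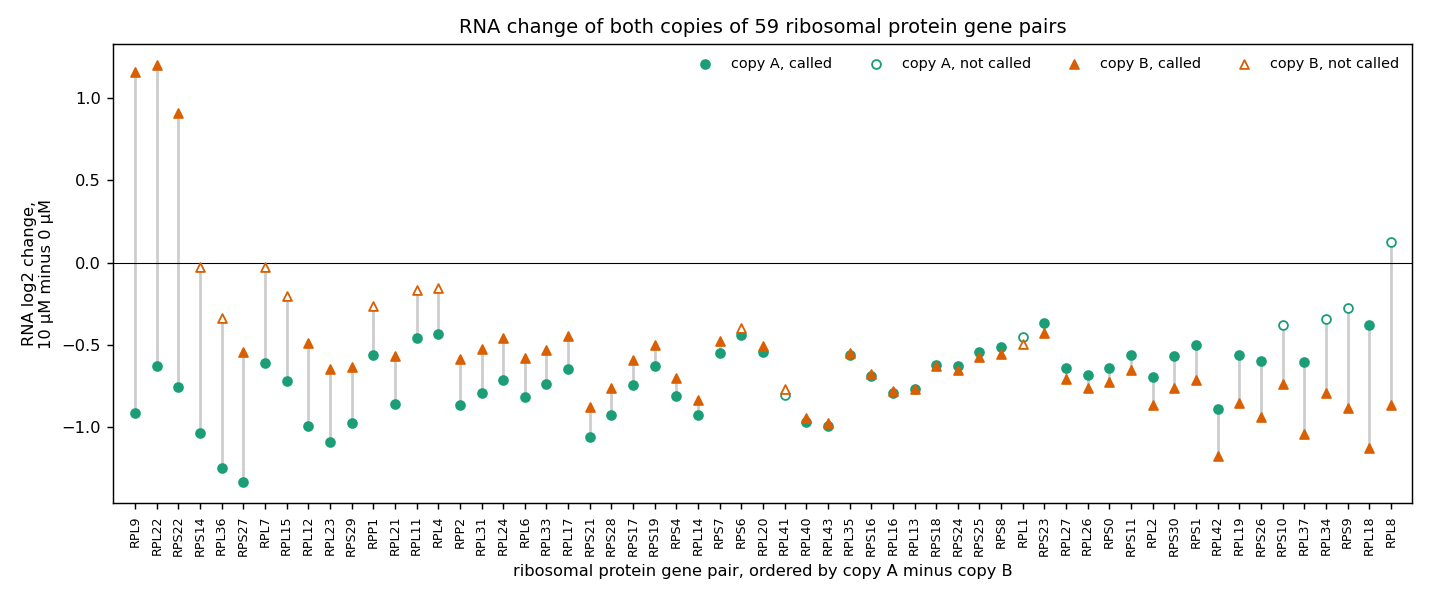
RNA log2 change (vertical axis) of both copies of 59 ribosomal protein gene pairs, ordered by the A copy minus the B copy, with copy A as circles, copy B as triangles and open symbols for genes not called. Most pairs lie below 0 together, while RPL9, RPL22 and RPS22 at the left have the B copy at 1.16, 1.2 and 0.91 and the A copy below 0.

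Genes that build ribosomes fell in part. In the small subunit processome and 40S assembly, 21 of 57 genes were called lower (median -0.37), a count that was 11 without RNA replicate 1 at 10 µM. BMS1, a GTPase of 40S assembly, went from 200.3 and 215 to 83.6 and 95.4 CPM (log2 change -1.21, SE 0.12, edgeR adjusted p = 0.0003), SNU13 (-1.04) and NOP1 (-0.96), proteins of small nucleolar RNPs, fell too, and RRP12 rose as described, the 1 rise of the list, which had 2 without RNA replicate 2 at 0 µM. In 60S assembly 16 of 59 genes fell (median -0.29), among them DBP6 (-0.88), TIF6 (-0.83), BRX1 (-0.90) and MRT4 (-1.01). That count was 8 without RNA replicate 1 at 10 µM and 10 without RNA replicate 2 at 0 µM or RNA replicate 2 at 10 µM. Of these 60S genes edgeR, DESeq2 and limma voom each called 0 higher (1 at an unadjusted edgeR p below 0.05), a count that was 1 with DESeq2 size factors, library totals or a mean RNA count of at least 100. RNA polymerases I and III had 7 of 35 members lower, with RRN3 (-0.85), the initiation factor of polymerase I, the clearest, and the count was 3 without RNA replicate 1 at 10 µM and 4 with a mean RNA count of at least 100.

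Translation factors mostly fell: 26 of 44 tested genes were called lower, with a median of -0.46. Of these genes edgeR, DESeq2 and limma voom each called 0 higher (0 at an unadjusted edgeR p below 0.05). Besides YEF3 they included NEW1 (-0.93), a paralog of YEF3 that acts in termination, TIF11 (-1.10), which encodes eIF1A, and DED1 (-0.78), an RNA helicase of initiation. Of the 20 cytosolic aminoacyl-tRNA synthetases 7 fell and 1 rose, a count of falls that ranged from 2 with the RNA libraries fitted alone to 8. It was 3 without RNA replicate 1 at 0 µM or either RNA replicate at 10 µM, and 4 without either footprint library at 0 µM. The 1 rise was lost without RNA replicate 2 at 10 µM and became 2 with library totals and 3 with a mean RNA count of at least 100. YHR020W (-0.78), the prolyl-tRNA synthetase gene, and MES1 (-0.57), the methionyl-tRNA synthetase gene, kept their calls in all settings that tested them. Nucleotide synthesis had 21 of 47 genes lower (median -0.25), and edgeR, DESeq2 and limma voom each called 0 higher (3 at an unadjusted edgeR p below 0.05), a count that was 1 without either RNA replicate at 0 µM or RNA replicate 1 at 10 µM or with DESeq2 size factors, library totals or a mean RNA count of at least 100. IMD3 (-1.17) of guanine nucleotide synthesis, URA2 (-0.91), which starts pyrimidine synthesis, ADE5,7 (-0.74) of purine synthesis and GCV2 (-1.33), a glycine decarboxylase subunit that supplies one-carbon units, fell most clearly.

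**Figure D3:**
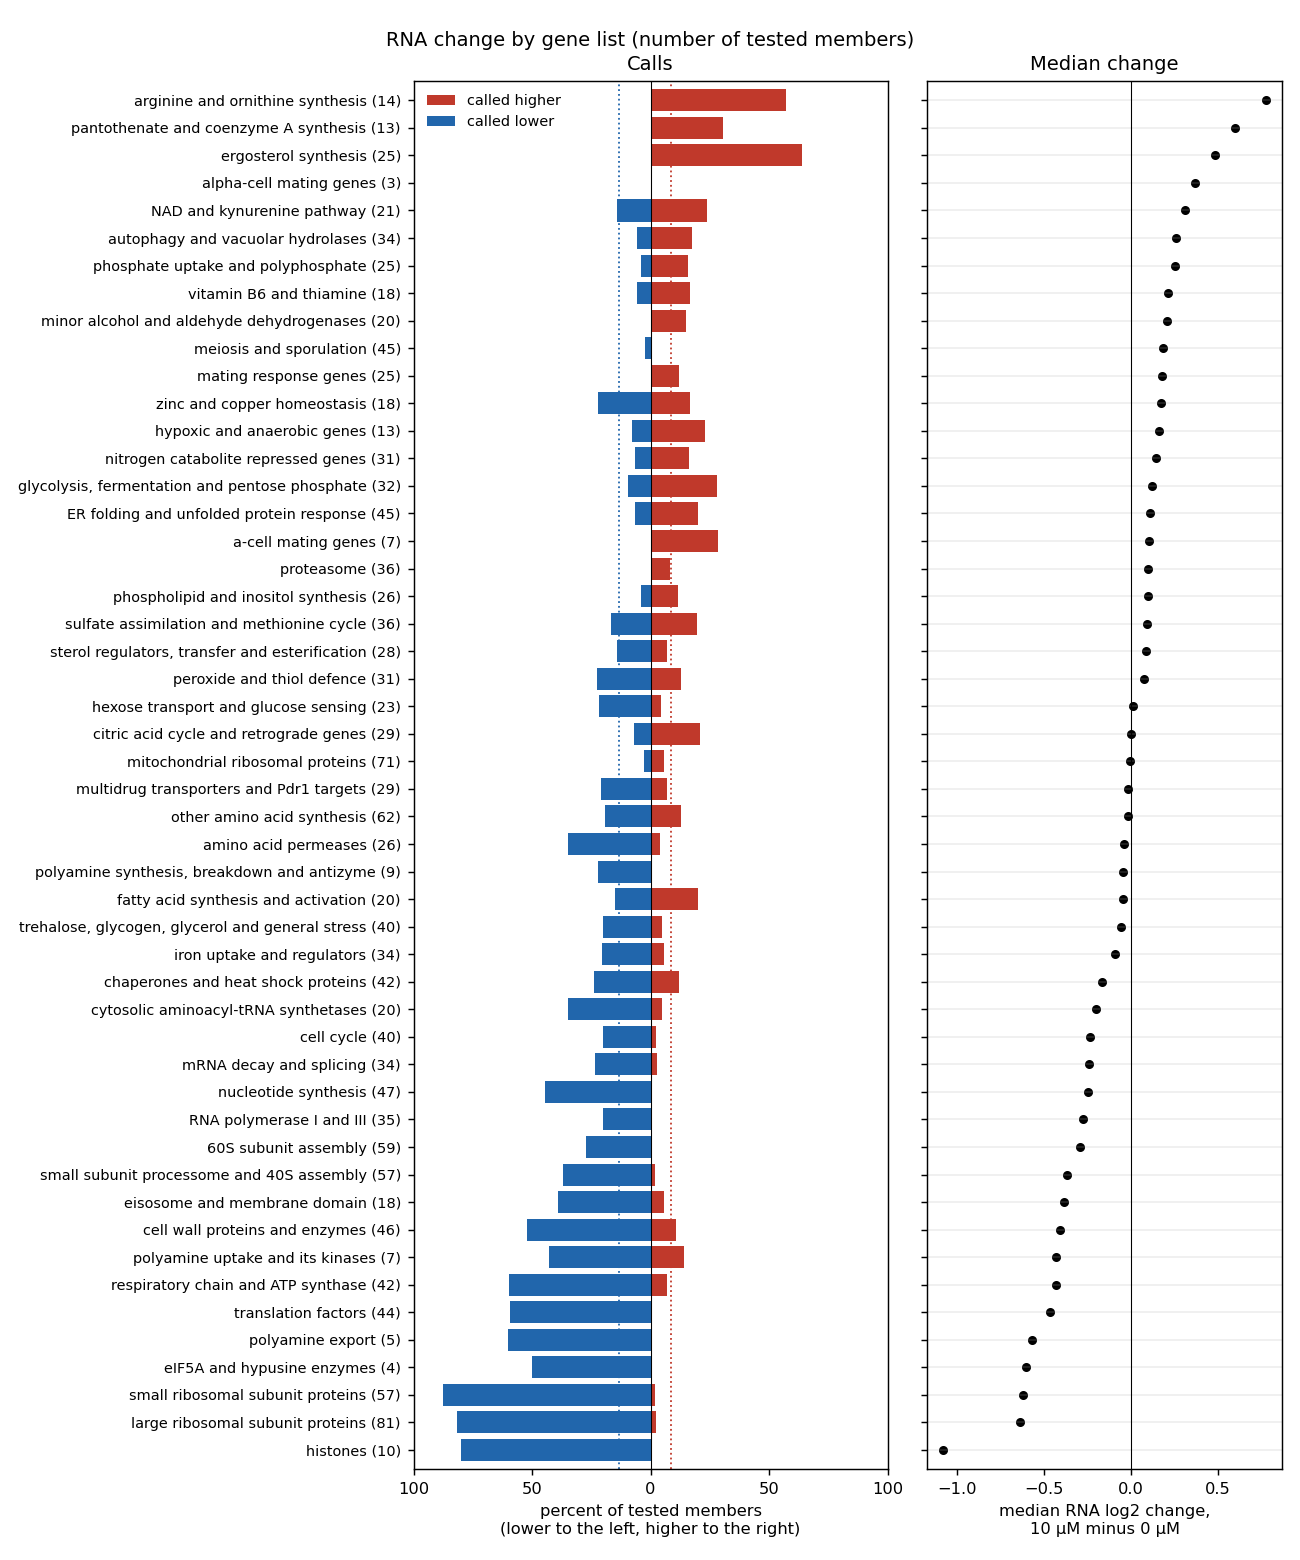
Share of tested members called higher (red, right) and lower (blue, left) in each of 50 gene lists, with dotted lines at the shares over all genes (8.45% higher, 13.5% lower), and each list's median RNA log2 change in the panel beside it. Histones (-1.08) and the ribosomal protein lists (-0.64 and -0.62) are at the bottom, and arginine synthesis (0.78), pantothenate synthesis (0.60) and ergosterol synthesis (0.48) at the top.

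Sterol synthesis rose. Of 25 tested genes of the ergosterol pathway, 16 were called higher (median 0.48), a count that was 10 without RNA replicate 1 at 10 µM. Of the pathway's genes edgeR, DESeq2 and limma voom each called 0 lower (1 at an unadjusted edgeR p below 0.05). The largest rises were in late steps that finish the sterol ring and side chain. ERG3 went from 397 and 332 to 1040.5 and 1019.9 CPM (log2 change 1.5, SE 0.11, edgeR adjusted p = 6.4e-05), ERG6, the sterol methyltransferase, from 182 and 180.4 to 508 and 432 CPM (log2 change 1.37, SE 0.11, edgeR adjusted p = 0.00012), and ERG25, the C-4 methyl oxidase, from 499 and 454 to 1258 and 1081 CPM (log2 change 1.30, SE 0.10, edgeR adjusted p = 0.00012). In all 3 the 10 µM libraries were more than 2-fold above the 0 µM libraries. ERG26 (1.16), ERG1 (1.15), the squalene epoxidase, and ERG11 (0.94), the lanosterol demethylase, followed. Other late genes rose by less: ERG27 (0.77), ERG28 (0.73), ERG24 (0.60), ERG4 (0.51), ERG2 (0.48) and ERG5 (0.33). In the earlier mevalonate part ERG10 (0.49), ERG13 (0.38), HMG2 (0.47) and MVD1 (0.53) were called, and HMG1 (-0.32), ERG12 (0.36), ERG8 (0.23), IDI1 (-0.27), ERG20 (0.19) and ERG9 (0.02) were not. Outside the mevalonate part, ERG7 (0.23), NCP1 (0.26) and CYB5 (0.16) were not called either. ERG28 lost its call without either RNA replicate at 0 µM or RNA replicate 1 at 10 µM (largest edgeR adjusted p 0.19), and ERG24 without RNA replicate 1 at 0 µM or RNA replicate 2 at 10 µM (largest edgeR adjusted p 0.11). ERG2 and ERG5 lost theirs with the RNA libraries fitted alone and in the omissions of RNA replicate 2 at 0 µM, of each RNA library at 10 µM and of each footprint library at 0 µM. ERG5 lost its call also in those of each footprint library at 10 µM and with the length trend removed. Of the mevalonate genes, ERG10 lost its call without RNA replicate 1 at 10 µM (largest edgeR adjusted p 0.055), and ERG13 and HMG2 lost theirs without RNA replicate 2 at 0 µM or either RNA replicate at 10 µM, HMG2 also without RNA replicate 1 at 0 µM and with DESeq2, limma voom or no filter and ERG13 with the RNA libraries fitted alone. Of 28 genes that regulate, transfer or esterify sterols, 4 fell (14.3%, against 13.5% of all genes) and 2 rose (7.14%, against 8.45%). Both shares were near those of all genes, and the median change was 0.09. The falls included the secreted sterol-binding proteins PRY1 (-1.10) and PRY2 (-1.23) and the acyltransferase ARE2 (-0.77).

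Other lipid genes moved singly. OPI3, which completes phosphatidylcholine synthesis, went from 194 and 209 to 439 and 389 CPM (log2 change 1.04, SE 0.12, edgeR adjusted p = 0.00054), and the choline transporter HNM1 fell (-0.60). With INO1 they were among 3 rises and 1 fall in 26 genes of phospholipid synthesis, shares of 11.5% against 8.45% of all genes and 3.85% against 13.5%. The 1 fall became 2 without either RNA replicate at 0 µM or with the length trend removed. OLE1, the fatty acid desaturase, went from 538 and 421 to 1112 and 1138 CPM (log2 change 1.23, SE 0.13, edgeR adjusted p = 0.00036), and MGA2 (0.78), an activator of OLE1, and ACB1 (0.77), the acyl-CoA binding protein, rose. Of 20 genes of fatty acid synthesis and activation 4 were called higher and 3 lower, and the falls numbered 1 with DESeq2 size factors, with DESeq2, with the RNA libraries fitted alone, and when RNA replicate 2 at 10 µM or a footprint library at 0 µM was left out. In the main fit the shares of this list were 20% higher and 15% lower, against 8.45% and 13.5% of all genes. Both OLE1 replicates with spermidine lay close together and above both without it. Of 13 hypoxic genes, ROX1, the repressor of the hypoxic program, went from 88.4 and 99.1 to 36.04 and 36.9 CPM (log2 change -1.36, SE 0.12, edgeR adjusted p = 0.00019). HEM13 (1.22), of haem synthesis, and EUG1 (1.41), an endoplasmic reticulum disulfide isomerase in the same list, rose. The hypoxic list had 3 genes called higher and 1 lower, and the rises numbered 1 with a mean RNA count of at least 100. Among the 28 genes that regulate, transfer or esterify sterols, the 2 rises numbered 1 without RNA replicate 2 at 10 µM or with a mean RNA count of at least 100. They numbered 6 without RNA replicate 2 at 0 µM.

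Arginine synthesis had the highest median of the 50 lists: 8 of 14 tested genes were called higher (median 0.78), and edgeR, DESeq2 and limma voom each called 0 lower (0 at an unadjusted edgeR p below 0.05), a count that was 1 without RNA replicate 1 at 0 µM. ARG1, argininosuccinate synthase, went from 779 and 761 to 1448 and 1825 CPM (log2 change 1.09, SE 0.15, edgeR adjusted p = 0.001), and ARG3, ornithine transcarbamylase, from 412 and 396 to 782 and 1077 CPM (log2 change 1.2, SE 0.17, edgeR adjusted p = 0.0012). ORT1, the mitochondrial ornithine carrier, went from 17.2 and 19.8 to 44.4 and 60.5 CPM (log2 change 1.5, SE 0.20, edgeR adjusted p = 0.001). In all 3 replicate 2 at 10 µM was higher than replicate 1, and both were above the 0 µM libraries. ARG5,6 (1.21), ARG8 (0.83), CPA1 (0.86) and ARG4 (0.72) rose as well. The ARG4 call was lost without RNA replicate 2 at 10 µM (largest edgeR adjusted p 0.085) and the ARG8 call without RNA replicate 2 at 0 µM or RNA replicate 2 at 10 µM (largest edgeR adjusted p 0.11). ARG2 (0.29) and ARG7 (0.36) were not called, nor were the regulators ARG80 (-0.52), ARG81 (-0.36), ARG82 (-0.35) and MCM1 (-0.34).

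In the synthesis of other amino acids, 8 of 62 genes were called higher (12.9%, against 8.45% of all genes) and 12 lower (19.4%, against 13.5%). The 8 rises became 5 without RNA replicate 2 at 10 µM. BAT2, the cytosolic branched-chain transaminase, went from 59.5 and 64.9 to 121 and 131 CPM (log2 change 1.02, SE 0.12, edgeR adjusted p = 0.00054), while ILV3 (-0.66) of the same pathway fell. GCN4, the transcription activator of amino acid synthesis genes, went from 1078 and 1054 to 509.8 and 497 CPM (log2 change -1.08, SE 0.09, edgeR adjusted p = 0.00015). Of 26 amino acid permeases 9 fell, against 13.5% of all genes, among them GNP1 (-1.19) for glutamine, PUT4 and MUP1 (-1.53) for methionine. VBA1 (1.21), a vacuolar transporter of basic amino acids, was the 1 that rose, and 2 did without RNA replicate 1 at 10 µM. In sulfur metabolism 7 of 36 rose (19.4%) and 6 fell (16.7%): SUL1, MET22 (1.09) and SAH1 (0.75), which clears S-adenosylhomocysteine, rose, and MUP1 fell. Of 31 genes under nitrogen catabolite repression 5 rose (16.1%) and 2 fell (6.45%, below the share of all genes). The rises numbered 2 without RNA replicate 1 at 10 µM and 3 without RNA replicate 2 at 10 µM. These 2 falls became 1 without RNA replicate 1 at 0 µM or either RNA replicate at 10 µM. UGA1 and DCG1 (1.25) rose and PUT4 fell.

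In carbon metabolism, some isozymes of a step were called and others were not. Of 32 genes of glycolysis, fermentation and the pentose phosphate pathway, 9 were called higher and 3 lower. The count of falls rose to 5 without either footprint replicate at 10 µM and 6 without RNA replicate 2 at 0 µM. Of the 3 genes for glyceraldehyde-3-phosphate dehydrogenase, TDH2 and TDH1 (1.37) rose while TDH3, the most abundant, was at 7739.9 and 6032 against 6009.8 and 5305 CPM and was not called (-0.28, edgeR adjusted p = 0.15). TDH1 went from 359.9 and 329 to 923 and 861 CPM. PYK2, the minor pyruvate kinase, rose (0.71) while CDC19, the major one, was not called (0.11). ADH3, the mitochondrial alcohol dehydrogenase, went from 398 and 468 to 715 and 852 CPM (log2 change 0.86, SE 0.12, edgeR adjusted p = 0.0012) and ADH5 from 53.99 and 69.01 to 146 and 148 CPM (log2 change 1.25, SE 0.21, edgeR adjusted p = 0.0024), while ADH1, the main fermentative one, went from 1688 and 1323 to 849 and 951 CPM (log2 change -0.74, SE 0.14, edgeR adjusted p = 0.0041). TPI1 (-0.58) fell and ENO1 (0.62) rose. PDC1, the main pyruvate decarboxylase, differed by -0.45, a call lost without either RNA replicate at 10 µM and with the RNA libraries fitted alone (largest edgeR adjusted p 0.09). Several of these are near-identical copies whose reads could move between them.

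Mitochondrial functions split. Of 42 genes of the respiratory chain and ATP synthase, 25 were called lower and 3 higher (median -0.43). The falls numbered 12 without RNA replicate 2 at 10 µM and 14 without RNA replicate 1 at 0 µM. The rises numbered 1 without RNA replicate 2 at 0 µM or RNA replicate 2 at 10 µM. NDE1 went from 815 and 789 to 252 and 223 CPM (log2 change -1.76, SE 0.10, edgeR adjusted p = 2.7e-05), HAP4, the activator of respiratory genes, from 125 and 159 to 45.96 and 48.7 CPM (log2 change -1.58, SE 0.17, edgeR adjusted p = 0.00036), and CYC1, cytochrome c, from 338 and 329 to 179 and 141 CPM (log2 change -1.06, SE 0.12, edgeR adjusted p = 0.00054). RIP1 (-1.03), the Rieske protein, also fell. In all 4 genes the groups were separate. The citric acid cycle and its retrograde-regulated genes had 6 of 29 members higher and 2 lower: DLD3, a lactate dehydrogenase, went from 1384 and 1377 to 2506 and 2607 CPM (log2 change 0.89, SE 0.08, edgeR adjusted p = 0.00026), and CIT2 (0.87), peroxisomal citrate synthase, PYC1 (0.88), pyruvate carboxylase, and LSC2 (0.84), of succinyl-CoA ligase, rose. The 2 falls became 1 without RNA replicate 1 at 10 µM. Of 71 mitochondrial ribosomal protein genes 4 were called higher and 2 lower, below the share of all genes in both directions, and MRPS12 (-0.97) fell. The 4 rises numbered 1 without either RNA replicate at 10 µM or with DESeq2 and 2 without either RNA replicate at 0 µM or with the RNA libraries fitted alone. The 2 falls became 1 in every omission but that of RNA replicate 2 at 0 µM, and with both other scalings, DESeq2, limma voom, the RNA libraries fitted alone, the length trend removed or a mean RNA count of at least 100.

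All 8 core histone genes fell. HTB2 went from 854 and 728 to 269 and 242 CPM (log2 change -1.63, SE 0.11, edgeR adjusted p = 6.4e-05), HTA2 from 521 and 489 to 190.1 and 179 CPM (log2 change -1.45, SE 0.12, edgeR adjusted p = 0.00012), HHF2 from 378 and 317 to 125 and 111 CPM (log2 change -1.56, SE 0.12, edgeR adjusted p = 0.00012) and HHF1 from 289 and 246 to 88.3 and 69.3 CPM (log2 change -1.76, SE 0.14, edgeR adjusted p = 0.00012). Replicates lay close together in each. HHT1 (-1.17), HTA1 (-0.99), HHT2 (-0.97) and HTB1 (-0.71) fell by less. The variant H2A.Z gene HTZ1 (-0.09, edgeR adjusted p = 0.75) and the linker histone gene HHO1 (-0.25, edgeR adjusted p = 0.22) were not called. Core histone genes are transcribed in S phase, when new chromatin is assembled. Of 40 other cell cycle genes 8 fell (20%, against 13.5% of all genes) and 1 rose (2.5%, against 8.45%). The falls numbered 2 without RNA replicate 2 at 10 µM, 3 with DESeq2 and 4 without RNA replicate 1 at 0 µM or RNA replicate 1 at 10 µM. The 1 rise became 0 without RNA replicate 2 at 0 µM or either RNA replicate at 10 µM and 2 without either footprint replicate at 0 µM or with DESeq2 size factors, library totals, a mean RNA count of at least 100, DESeq2 or limma voom. SIC1 (-0.96), the inhibitor of S-phase cyclins, was the clearest of them.

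The cell surface list was among those that fell most. Of 46 genes for wall proteins and enzymes, 24 were called lower and 5 higher (median -0.41), and the falls numbered 13 without RNA replicate 2 at 10 µM and 14 without RNA replicate 1 at 0 µM. SCW10, a soluble wall glucanase, went from 1349.7 and 1235 to 484 and 462 CPM (log2 change -1.45, SE 0.10, edgeR adjusted p = 6.4e-05), and GAS1, which elongates glucan, went from 2337 and 1971 to 1181 and 1157 CPM (log2 change -0.88, SE 0.10, edgeR adjusted p = 0.00054). YGP1 (-1.24), a secreted stress glycoprotein, fell too. PIR3, a wall protein with internal repeats, went the other way, from 35.6 and 37.2 to 87.7 and 79.5 CPM (log2 change 1.2, SE 0.13, edgeR adjusted p = 0.00036), as did CWP1. Eisosomes, the furrows of the plasma membrane that hold nutrient transporters, had 7 of 18 genes lower and 1 higher, and the falls numbered 4 without RNA replicate 1 at 0 µM or RNA replicate 2 at 10 µM. NCE102 went from 1465 and 1132 to 365 and 337 CPM (log2 change -1.89, SE 0.13, edgeR adjusted p = 6.4e-05), SUR7 from 453 and 374 to 168 and 145 CPM (log2 change -1.40, SE 0.13, edgeR adjusted p = 0.00021) and LSP1 from 657 and 495 to 271 and 257 CPM (log2 change -1.13, SE 0.13, edgeR adjusted p = 0.00056). PUN1 (0.81) was the 1 that rose, and 2 did without RNA replicate 2 at 0 µM.

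**Figure D4:**
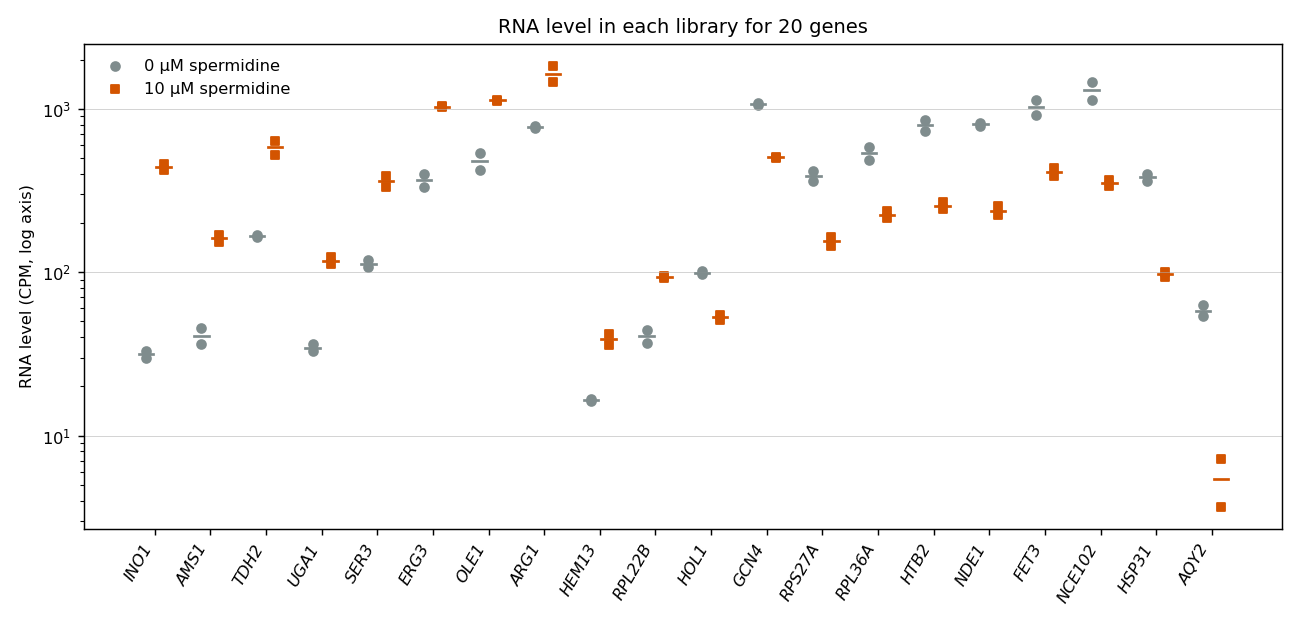
RNA level of 20 genes (CPM, log axis) in each of the 4 libraries, with circles for 0 µM, squares for 10 µM spermidine and a bar at the mean of each pair of replicates. The conditions do not overlap in any of the 20, from the rise of INO1 at the left to the fall of AQY2 at the right. The 20 were picked from genes called in RNA, so this separation is not a further result.

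Metal genes moved in both directions. Iron uptake and regulators had 7 of 34 genes lower (20.6%, against 13.5% of all genes) and 2 higher (5.88%, against 8.45%): FET3, the ferroxidase of high-affinity uptake, went from 1132 and 917 to 431 and 386 CPM (log2 change -1.33, SE 0.14, edgeR adjusted p = 0.00039), and HMX1 (-1.24), haem oxygenase, ARN1 (-1.02), a siderophore transporter, and ISU2 fell. The 2 iron rises became 1 without RNA replicate 1 at 0 µM or either RNA replicate at 10 µM or with DESeq2 and 4 with DESeq2 size factors. Of 18 zinc and copper genes 3 rose (16.7%) and 4 fell (22.2%), with ZRC1 (-0.66), a vacuolar zinc transporter, lower and IZH1 (0.89) higher beside ZPS1. The 4 falls numbered 1 without RNA replicate 2 at 10 µM and 2 without either RNA replicate at 0 µM or with library totals, DESeq2 or the RNA libraries fitted alone. Of 25 phosphate and polyphosphate genes 4 rose, a count that was 0 without RNA replicate 2 at 10 µM and 2 without RNA replicate 1 at 0 µM or with the RNA libraries fitted alone, and VTC5 (-0.88), of the polyphosphate polymerase, fell. That 1 fall became 2 without RNA replicate 2 at 10 µM. HOL1, TPO2 and TPO4, already described, and PDR16 (-1.04), a phosphatidylinositol transfer protein, fell among the multidrug transporters and targets of Pdr1. Of these 29 genes 6 fell (20.7%, against 13.5% of all genes) and 2 rose (6.90%, against 8.45%). Their 2 rises became 1 in every omission but that of RNA replicate 2 at 0 µM, and with DESeq2, limma voom, the RNA libraries fitted alone, the length trend removed or a mean RNA count of at least 100.

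Stress genes showed no single direction. Over all genes 13.5% were called lower and 8.45% higher. Shares lower and higher were 23.8% and 11.9% for chaperones, 20% and 5% for general stress and 22.6% and 12.9% for peroxide defence. For folding in the endoplasmic reticulum they were 6.67% and 20%. Chaperones and heat shock proteins had 10 of 42 genes lower and 5 higher. The falls numbered 6 without RNA replicate 2 at 10 µM. The rises numbered 1 without RNA replicate 2 at 10 µM, 2 without RNA replicate 2 at 0 µM or RNA replicate 1 at 10 µM and 3 with the RNA libraries fitted alone. The ribosome-bound Hsp70 genes SSB2 (-0.80) and SSB1 (-0.86), the cytosolic Hsp70 gene SSA2 (-0.70) and the co-chaperone gene SIS1 (-0.74) fell. Of 40 genes of trehalose, glycogen, glycerol and general stress, 8 fell and 2 rose, with DDR2, GIS1 (-0.91) and TSL1 (-0.88) the clearest falls, and the falls numbered 4 without RNA replicate 2 at 10 µM or with a mean RNA count of at least 100. Their 2 rises became 0 without RNA replicate 1 at 10 µM and 1 with the RNA libraries fitted alone. In peroxide and thiol defence 7 of 31 fell and 4 rose: CTT1, cytosolic catalase, went from 183 and 146 to 73.1 and 69.3 CPM (log2 change -1.21, SE 0.17, edgeR adjusted p = 0.0012), GPX2 (-1.20) and SOD1 (-0.77) fell, and DOT5 (0.89) rose. The 4 rises numbered 1 without RNA replicate 2 at 0 µM and 2 without either RNA replicate at 10 µM or with a mean RNA count of at least 100. Of 45 genes of endoplasmic reticulum folding and its stress response, 9 rose and 3 fell: PDI1, protein disulfide isomerase, went from 602 and 604 to 939.6 and 923 CPM (log2 change 0.63, SE 0.09, edgeR adjusted p = 0.0013), and FPR2 (1.2), LHS1 (0.84) and EUG1 rose. The 3 falls numbered 1 without RNA replicate 2 at 10 µM and 5 without RNA replicate 1 at 10 µM.

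Cofactor and vacuolar genes included several clear rises. In the NAD and kynurenine pathway 5 of 21 rose and 3 fell. BNA1 went from 44.6 and 48.9 to 127 and 135 CPM (log2 change 1.49, SE 0.16, edgeR adjusted p = 0.00036), BNA6 from 26.6 and 23.9 to 68.9 and 63.6 CPM (log2 change 1.39, SE 0.15, edgeR adjusted p = 0.00036) and BNA4 from 28.9 and 34.8 to 76.8 and 85.2 CPM (log2 change 1.34, SE 0.19, edgeR adjusted p = 0.0011), all enzymes that make NAD from tryptophan. POS5 (-0.79), the mitochondrial NADH kinase, fell, and the count of falls was 1 without RNA replicate 1 at 0 µM or RNA replicate 2 at 10 µM or with DESeq2. In pantothenate and coenzyme A synthesis 4 of 13 rose (median 0.60), CAB1 (0.60), ECM31 (0.90), CAB2 (0.81) and AMD2 (0.73), and each of these calls was lost in at least 1 omission: CAB1 and ECM31 without RNA replicate 2 at 10 µM, CAB2 without RNA replicate 2 at 0 µM or RNA replicate 1 at 10 µM, and AMD2 in all but that of RNA replicate 1 at 10 µM. The count was 1 without RNA replicate 2 at 10 µM or with a mean RNA count of at least 100 and 2 without RNA replicate 2 at 0 µM. Of 34 autophagy and vacuolar hydrolase genes 6 rose and 2 fell, and the rises numbered 3 without RNA replicate 2 at 10 µM: the aminopeptidase genes LAP3 (1.49) and APE1 (1.05) rose beside AMS1, which reaches the vacuole by the same route as Ape1. The 2 falls of that list became 0 without RNA replicate 2 at 10 µM. They became 1 without either RNA replicate at 0 µM, RNA replicate 1 at 10 µM or either footprint library at 10 µM, and with both other scalings, DESeq2 or the RNA libraries fitted alone. Of 34 genes of mRNA decay and splicing 8 fell and 1 rose, with EDC1 (-1.53), a decapping activator, the clearest fall, and falls ranged from 3 to 8 over the settings, with 3 without RNA replicate 1 at either concentration and 4 without RNA replicate 2 at either. The 1 rise was lost with DESeq2, with the RNA libraries fitted alone, and in the omissions of each library at 0 µM and of RNA replicate 2 at 10 µM.

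Hexose transport and glucose sensing had 5 of 23 genes lower (21.7%, against 13.5% of all genes) and 1 higher (4.35%, against 8.45%). MIG1 (-0.98), the glucose repressor, was among the falls. The falls numbered 2 without either RNA replicate at 10 µM or with DESeq2 and 3 without RNA replicate 2 at 0 µM or with a mean RNA count of at least 100. The 1 rise was lost in all 8 omissions and with DESeq2, limma voom, the RNA libraries fitted alone or the length trend removed, and became 2 with DESeq2 size factors. The proteasome, with 3 of 36 genes higher, was at the share of all genes, and those 3 calls did not hold: the count was 0 without RNA replicate 1 at 0 µM or RNA replicate 2 at 10 µM. It was 1 in each of the other 6 omissions, 0 with the RNA libraries fitted alone, 1 with DESeq2 and 5 with a mean RNA count of at least 100. Of 45 genes of meiosis and sporulation 1 was called lower, and edgeR, DESeq2 and limma voom each called 0 higher (1 at an unadjusted edgeR p below 0.05), a count that was 1 without RNA replicate 1 at 10 µM and 2 without RNA replicate 2 at 0 µM. The count of falls was 0 without RNA replicate 2 at 0 µM or RNA replicate 2 at 10 µM or with a mean RNA count of at least 100. Genes of the mating response had 3 of 25 higher, 5 without RNA replicate 2 at 0 µM. In the main fit 12% of the mating response genes were called higher, against 8.45% of all genes. AGA1 (0.78) and PRM5 (0.67) kept their calls in all settings that tested them. Of the a-cell genes, BAR1, the protease that degrades alpha-factor, went from 107 and 115 to 273 and 229 CPM (log2 change 1.17, SE 0.12, edgeR adjusted p = 0.00036). ASG7, at few reads, was the other call of that list (1.42, edgeR adjusted p = 0.043). The list had 2 of 7 genes called higher, but 1 in each omission of an RNA library or of a footprint library at 0 µM and with limma voom. It had 1 also with a mean RNA count of at least 100, where ASG7, with 10 to 27 reads, was not tested. Of this list edgeR, DESeq2 and limma voom each called 0 lower (0 at an unadjusted edgeR p below 0.05). Of 3 alpha-cell genes tested, edgeR, DESeq2 and limma voom each called 0 in either direction (0 at an unadjusted edgeR p below 0.05). Of 18 genes of vitamin B6 and thiamine synthesis 3 were called higher and 1 lower. The vitamin rises numbered 1 without RNA replicate 1 at 0 µM or either RNA replicate at 10 µM or with a mean RNA count of at least 100, and the fall was lost without RNA replicate 1 at 10 µM or with DESeq2. Of 20 minor alcohol and aldehyde dehydrogenase genes 3 were called higher, and edgeR, DESeq2 and limma voom each called 0 lower (1 at an unadjusted edgeR p below 0.05).

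The RNA changes were mostly shared by footprints of the same genes. Of the 464 genes called higher in RNA, 352 (75.9%) were called higher in footprints, 7 lower and 105 not called. Of the 739 called lower, 496 (67.1%) were called lower in footprints, 6 higher and 237 not called. Footprint libraries were deeper, and 38.5% of genes were called in them, so the 2 counts of calls are not a comparison of response sizes. A further 1253 genes were called in footprints and not in RNA. The difference between the RNA and the footprint change was itself called for 98 genes, 1.79%, of which 35 were called in RNA. Among single omissions that count ran from 20 without RNA replicate 2 at 10 µM to 151 without RNA replicate 2 at 0 µM, and it was 34 without footprint replicate 1 at 10 µM, 39 without footprint replicate 2 at 10 µM, 45 without footprint replicate 1 at 0 µM, 49 without RNA replicate 1 at 10 µM and 64 without footprint replicate 2 at 0 µM.

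GCN4 was the clearest gene with opposite calls. Its RNA fell, as given, by 1.08 on the log2 scale, and its footprints rose from 61.3 ± 0.31 to 131 ± 7.7 CPM (SD, n = 2; log2 change 1.1, edgeR adjusted p = 5.5e-05), a difference of -2.18 (edgeR adjusted p = 7.5e-05). HAC1, the transcription activator of the unfolded protein response, went from 898 and 726 to 502 and 435 CPM in RNA (log2 change -0.79, SE 0.16, edgeR adjusted p = 0.0067), while its footprints rose by 2.03 (edgeR adjusted p = 4.7e-05). The GCN4 calls in RNA held in all 18 settings, and the HAC1 call was lost without RNA replicate 2 at 10 µM. The other 4 genes lower in RNA and higher in footprints were RPP2B (-0.58 and 0.65), NMA1 (-0.53 and 0.61), SHR3 (-0.52 and 0.42) and AAT2 (-0.42 and 0.42), given as RNA and then footprint log2 changes. Each of these 4 RNA calls was lost without RNA replicate 1 at 0 µM and without RNA replicate 2 at 10 µM, and those of RPP2B, NMA1 and AAT2 also without RNA replicate 1 at 10 µM.

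In the opposite sense, MFB1, an F-box protein of mitochondria, rose in RNA from 137 and 143 to 197 and 233 CPM (log2 change 0.62, SE 0.11, edgeR adjusted p = 0.0042) and fell in footprints (log2 change -0.42, edgeR adjusted p = 0.019). Its RNA call held in all 18 settings. SEO1, a putative permease, rose in RNA from 28.9 and 23.2 to 47.5 and 44.1 CPM (log2 change 0.82, SE 0.17, edgeR adjusted p = 0.0079) while its footprints went from 15.3 ± 1.1 to 3.44 ± 0.015 CPM (SD, n = 2), and its RNA call was lost without RNA replicate 1 at 10 µM (largest edgeR adjusted p 0.054). RAD9 (0.48 and -0.41), DUS3 (0.54 and -0.36), ACF4 (0.38 and -0.53), SRD1 (0.97 and -1.09) and NDE2 (1.07 and -1.90) were the others higher in RNA and lower in footprints. Each of these RNA calls was lost in at least 2 omissions. Without RNA replicate 1 at 0 µM the calls of DUS3, ACF4, SRD1 and NDE2 were lost. Without RNA replicate 1 at 10 µM those of RAD9, DUS3, ACF4 and SRD1 were lost. RAD9, SRD1 and NDE2 also lost theirs without RNA replicate 2 at 10 µM, RAD9 and NDE2 without RNA replicate 2 at 0 µM, and ACF4 in each omission of a footprint library. At 0 µM the RNA level of RAD9 was 6.36 times its footprint level, where the median gene had 0.986, and which reads raise it was not tested. The difference was called for 12 of the 13 genes and missed for NDE2 (edgeR adjusted p = 0.057). INO1 rose in both, by 3.80 in RNA and 5.36 in footprints, a called difference of -1.55 (edgeR adjusted p = 0.016). The mRNAs of LAM4 (-0.26) and AZR1 (-0.06), whose footprints were among the largest falls, were not called.

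**Figure D5:**
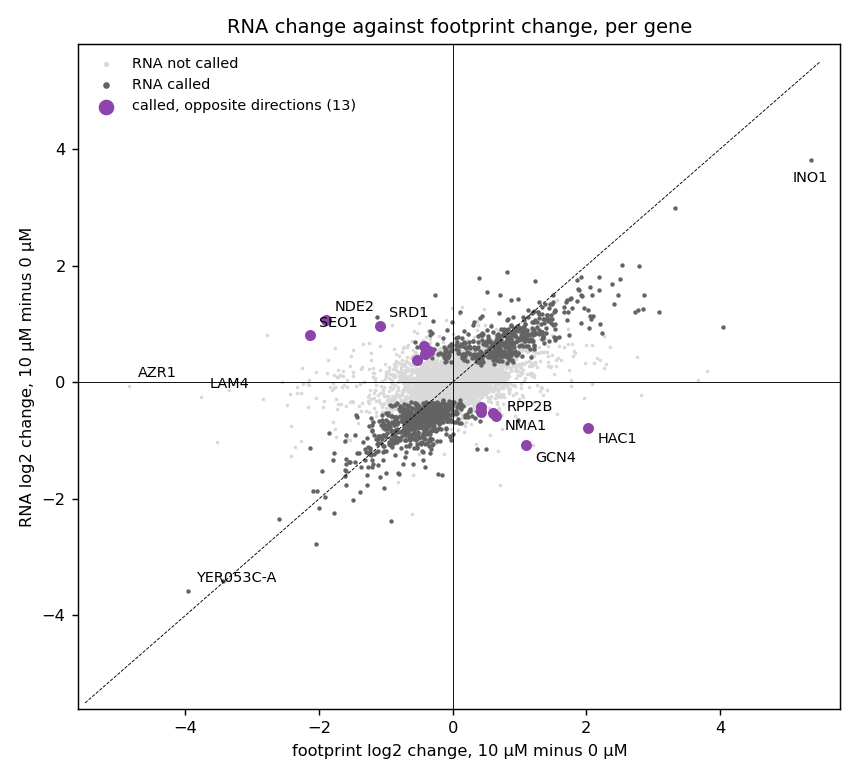
RNA log2 change (vertical axis) against footprint log2 change (horizontal axis) with 10 µM spermidine for 5488 genes, with a dashed line of equality, darker points for genes called in RNA and large points for the 13 called in opposite directions. Most called genes lie in the lower left and upper right; GCN4 is at 1.1 in footprints and -1.08 in RNA, and LAM4 and AZR1 lie near 0 in RNA and far to the left.

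How often a gene was called depended on its level. Of 5 equal groups of genes by mean RNA level, in the lowest, up to 23.5 CPM, 8.65% were called, and in the highest, from 177 CPM, 41.2%, with median standard errors of the log2 change of 0.28 and 0.12. A gene of low level that was not called may therefore have changed by an amount these libraries could not show. Of 178 genes within 25000 bp of the first or last annotated gene of a chromosome, 23 were called higher and 16 lower, with a median of 0.20. The share of them called in either direction, 21.9%, was that of all genes.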

How the data were processed

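Total RNA and ribosome footprints of 1 yeast strain at 0 and 10 µM spermidine were grouped from the sample titles. The authors deposited a table of unnormalized read counts, 1 column per library and 1 line per gene. Per the submitters' processing notes, Bowtie (versions 1.1.2 and 1.2.2), cutadapt and edgeR were used, in an order not stated, with sacCer3 (R64) as the build. Per the labels' protocols, 10 µg of total RNA was fragmented at 70 °C for 15 min and then made into libraries as for footprints. Neither the counted part of a gene, nor strand, nor the treatment of reads matching several genes is given in the sources used here. No library has a count below 1, so a gene silent in any library is not seen. 3 lines that named no gene held no counts and were left out. A RefSeq gene table of assembly R64 gave symbols for 5543 IDs, with 2 unmatched, among them YPR108W-A, which took 2.62% to 4.99% of RNA counts.

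Counts were fitted in R 4.3.3 with edgeR 4.0.16 (quasi-likelihood test, all 8 libraries, a coefficient for each of 4 groups, 4 residual degrees of freedom) after filterByExpr (minimum count 10, minimum total 15) and TMM scaling, with calls at a Benjamini-Hochberg adjusted p below 0.05. Standard errors are the log2 change over the root of F. The alternatives were 2 other scalings, 2 other filters, DESeq2 1.42.0, limma voom (limma 3.58.1), the RNA libraries alone, a replicate block, the most abundant entry left out, a length trend removed and each of 8 libraries left out, 18 in all. The filter at a mean RNA count of at least 100 tested 3372 genes. A list count under it can differ because members were not tested. The fits were tested on simulated counts first.

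The comparison and the 50 gene lists were chosen with earlier results of these data known, so no count over a list is an independent test, and some lists share members. The rule for named genes took the 15 largest rises and falls among called genes at 10 CPM or more, the 8 most abundant changed by at least 1.5-fold, HOL1, SPE1, SPE2, LEU2 and URA3, and up to 4 called members of each list by p. Not every gene it took is printed, and other list members, the ribosomal protein pairs and the 13 genes with opposite calls were named after their values were seen. Remarks that the conditions did not overlap in a gene describe genes already called and are no further test. SPE1, LEU2 and URA3, which check the strain, had log2 differences of 0.05, 0.10 and -0.37 (edgeR adjusted p = 0.95, 0.55 and 0.047), and the URA3 call was lost in 13 of the 18 settings.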

Additional observations from a re-analysis of the deposited data

Results flagged for a closer look

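For 10 of the genes named by the rule, the RNA change with spermidine and the footprint change of the same gene differed by the test of the difference itself (edgeR quasi-likelihood test of the RNA change minus the footprint change, adjusted over 5488 genes). On the log2 scale the difference was -2.18 for GCN4, -1.59 for ADH5, -1.55 for INO1 and -1.52 for DCG1, and it was -0.89 for RPS27A, -0.87 for BMS1, -0.77 for RPS9B and -0.74 for SAM3. In GCN4 the RNA fell and the footprints rose. In ADH5, INO1 and DCG1 both rose and the footprints rose by more. In RPS27A and BMS1 both fell and the RNA fell by more, and in RPS9B and SAM3 the RNA fell and the footprint change was not called. The difference was 0.89 for RAD9, whose RNA rose and footprints fell, and 0.73 for RRP12, whose RNA rose while its footprint change was not called. RNA levels at 0 µM were 6.36 times the footprint levels for RAD9 and 7.20 times for RRP12, where the median gene had 0.986. The edgeR adjusted p of the difference was 7.5e-05 for GCN4, but 0.034 for RAD9 and 0.048 for SAM3, closer to the threshold of 0.05. How many genes had a called difference depended on the libraries kept, as given below.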

How the results depend on the processing

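Over the 18 alternatives no called gene of the rule or the lists changed direction. Not every alternative tested every gene. Of the 195 genes that the rule names and the test calls, 147 kept the call in every alternative that tested them. The other 48 lost it in at least 1, 47 of them in at least 1 omission of a library. HOL1 kept its call throughout. The counts of calls depended more on the libraries: rises ran from 233 to 433 and falls from 436 to 677 over single omissions, and the count of genes whose RNA and footprint changes differ from 20 to 151. DESeq2 called 473 falls and 367 rises. Both other scalings moved the balance towards rises, with 560 higher and 624 lower under DESeq2 size factors, and the median of all genes by under 0.1 on the log2 scale. Same-numbered RNA libraries at 0 and 10 µM deviated together with r = 0.18 over genes, from 2 pairs and with no label that states a pairing. With the replicate block 587 genes were higher and 848 lower, and the RNA and footprint changes of 295 genes differed. The difference could not be fitted with the RNA libraries alone. The shallow 10 µM libraries limit what low genes can show.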
